A study of Mus musculus with 6 samples.

Results

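Cytosolic ribosomal protein genes were compared between splenic B cells of Sle2 mice and of B6 mice. Each strain was represented by 3 mice, and each mouse by its own Illumina BeadChip. Members were taken by gene symbol: every Rpl or Rps gene with a number, then an optional a, x, y or l and an optional final digit. Rplp0, Rplp1, Rplp2 and Rpsa were included, and the Rps6k kinases and pseudogenes were left out. This gave 92 of the 45281 probes on the array and 62 of the 19057 genes with a symbol, 37 of the large subunit and 25 of the small subunit. A probe was called detected at a detection p-value under 0.05, and 75 member probes of 54 genes were detected on at least 3 of the 6 arrays and entered the fit, among 17861 such probes in all. Sle2 mice (B6.Sle2) are congenic: they carry the Sle2 lupus susceptibility segment of NZM2410 chromosome 4 on a C57Bl/6 background. B6 mice are wild type C57Bl/6. RNA in both strains came from freshly isolated B cells of the spleen, and the labels give neither age nor sex.

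Ribosomes consist of a large and a small subunit, each built from ribosomal RNA and a set of proteins that are needed in near equal numbers. The mRNAs of these proteins are among the most abundant in growing and resting lymphocytes, and most begin with a run of pyrimidines through which mTOR signalling adjusts their translation. Rpl29 encodes a protein at the surface of the large subunit, and mice without it are viable but small.

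The starts of 4 member genes are shown because each has a pyrimidine run near it, which the choice of members did not use. The run crosses the annotated start in Rps6 and Rps10 and ends before it in Rpl4 and Rps25. Each line runs from 45 bases before to 20 bases after the annotated start, 5′ to 3′ on the transcript strand, with runs of 8 or more pyrimidines (C or T) in capitals. The sequences are from RefSeq, build GRCm38.p6: Rps6 at chr4:86857348-86857412 on the minus strand, Rpl4 at chr9:64173342-64173406 and Rps25 at chr9:44407669-44407733 on the plus strand, and Rps10 at chr17:27635225-27635289 on the minus strand.
Rps6: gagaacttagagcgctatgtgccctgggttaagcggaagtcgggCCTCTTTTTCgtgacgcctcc
Rpl4: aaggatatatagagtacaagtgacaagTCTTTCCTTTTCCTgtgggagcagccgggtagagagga
Rps25: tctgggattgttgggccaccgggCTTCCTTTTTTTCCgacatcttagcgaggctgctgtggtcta
Rps10: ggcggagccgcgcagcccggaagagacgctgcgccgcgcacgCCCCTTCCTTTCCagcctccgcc
Of the 62 member genes, 51 were matched to the promoter table by gene identifier, with 61 starts; Rpl29 was not among them. Such a run lay within 50 bases of 46 of the 61 member starts (75.4%), against 35.7% of 32851 starts of all genes. The letters CGGAAG, the core recognised by ETS factors, were found on either strand between 250 bases before and 50 bases after 38 of the member starts (62.3%), against 16.9% of all starts. These matches describe the letters in the window, not whether a transcript begins with the run, and were not tested.

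Between 17417 and 17923 probes were detected per array, and the median raw intensity lay between 53.6 and 56.7 on Sle2 arrays and between 50.4 and 52.1 on B6 arrays. Of the B cell genes that were measured, Ms4a1, which encodes CD20, lay between 9.62 and 9.86 in Sle2 and between 9.56 and 9.83 in B6 on the normalized log2 scale, and the brighter probe of Cd79b lay between 13.66 and 13.73 in Sle2 and between 13.77 and 13.95 in B6. Cr2, the complement receptor CD21, had the smallest p of the 10 B cell markers measured, at 8.13 in Sle2 and 7.51 in B6 (difference 0.62, limma adjusted p = 0.0878). The brightest Xist probe, a transcript of the inactive X chromosome, read 10.93 in Sle2 mouse 3 and 10.13 in B6 mouse 2, and at most 4.36 in the other Sle2 mice. In B6 mouse 3 it read 5.89 beside 8.67 for the brighter probe of the Y-linked Eif2s3y, so that array held both signals. Sle2 mouse 3 read 5.36 at that Eif2s3y probe, which was detected in all 3 Sle2 mice, so its array held a weaker Y-linked signal beside Xist. Leaving out either of these arrays changed no call among the member probes. Of the member differences recomputed without B6 mouse 3, those that moved by over 1.5 times were all uncalled. They were Rpl30 (-0.16, brighter probe), Rpl22l1 (-0.13), Rplp1 (-0.12), Rpl22 (-0.0059), Rpl7l1 (0.078) and Rps9 (0.019).

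The Rpl29 signal was lower in Sle2 B cells at both of its probes, and no other ribosomal protein probe passed the test in either direction. The probe with the larger difference read 6.40, 6.46 and 7.01 in Sle2 mice 1, 2 and 3, against 10.92, 10.90 and 10.93 in the B6 mice. The other probe read 10.94, 10.88 and 10.92 in the Sle2 mice, against 12.73, 12.59 and 12.66 in the B6 mice. At both probes every Sle2 array lay below every B6 array, by more than the whole spread within either strain. In raw intensity, before background correction, the first probe gave 126, 120 and 169 in Sle2 and 1778, 1722 and 1961 in B6, and the second 2193, 1986 and 2158 in Sle2 and 6180, 5404 and 6587 in B6. Both probes were detected in all 3 mice of each strain, so neither Sle2 value is a limit of detection. The quantities here are probe signals from a bulk cell sample, in which fewer cells of a type and less RNA per cell cannot be told apart. Whether each probe binds the Rpl29 transcript equally well in both strains was not tested.

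The first Rpl29 probe averaged 6.62 ± 0.34 in Sle2 and 10.92 ± 0.015 in B6 (SD, n = 3 each), a log2 difference of -4.29 (SE 0.159, limma adjusted p = 6.97e-06) or 19.6-fold lower. The second averaged 10.91 ± 0.034 in Sle2 and 12.66 ± 0.070 in B6 (SD, n = 3 each), a difference of -1.75 (SE 0.0919, limma adjusted p = 5.99e-05) or 3.36-fold lower. Among all 17861 detected probes, the first had the number 2 largest decrease and the second ranked 16. The exact two-sided permutation p was 0.1 at each probe, the smallest that 3 against 3 allows. Called probes made up 1.06% of all detected probes (190, of which 0.504% of the total were lower and 0.56% higher), and 2 of 75 among the ribosomal protein probes.

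**Figure D1:**
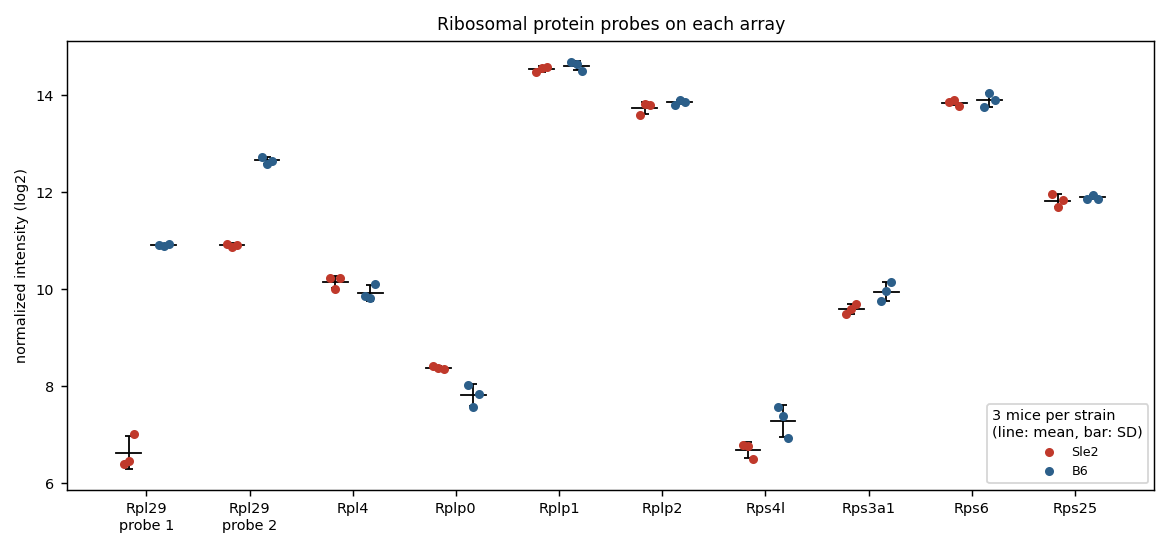
Normalized log2 intensity of 10 ribosomal protein probes on each array, Sle2 (red) left of B6 (blue), with points for 3 mice per strain, lines for means and bars for SD. Both Rpl29 probes are lower on every Sle2 array (6.40 to 7.01 against 10.90 to 10.93, and 10.88 to 10.94 against 12.59 to 12.73). By smaller differences, Rps4l and Rps3a1 are also lower and Rplp0 higher on every Sle2 array. The strains overlap for Rpl4, Rps6, Rps25, Rplp1 and Rplp2.

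The probes of Rpl29 did not report the same size of difference. Within each array the first probe lay below the second in both strains, and the first minus the second was -4.55, -4.42 and -3.91 in Sle2 mice 1, 2 and 3, and -1.81, -1.69 and -1.73 in B6 mice 1, 2 and 3 (log2). The gap was wider in every Sle2 mouse than in any B6 mouse (exact two-sided permutation p = 0.1, the smallest possible here). The strain differences at the probes were 2.55 log2 units apart. Of 3764 genes with at least 2 detected probes, 2 had a spread between probes of that size or more, Rpl29 and Wdr82, a neighbour of Rpl29 described below.

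Rpl29 was also set against the other ribosomal protein probes on the same array. The first Rpl29 probe minus the median of the other 73 member probes was -7.10, -7.06 and -6.61 in the Sle2 mice, and -2.61, -2.65 and -2.63 in the B6 mice. The second probe minus that median was -2.55, -2.64 and -2.70 in the Sle2 mice, and -0.80, -0.96 and -0.91 in the B6 mice. The gap to the rest was wider in every Sle2 mouse at both probes. The median of the other probes itself was 13.49, 13.52 and 13.62 in the Sle2 mice and 13.53, 13.55 and 13.56 in the B6 mice.

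The remaining 73 probes, of 53 genes, stayed close between the strains. Their log2 differences ran from -0.61 (Rps4l) to 0.57 (Rplp0) with a median of 0.038, and 44 were positive and 29 negative. The median over all 75 member probes was 0.035, against -8.9e-05 over all detected probes. At the adjusted threshold of 0.05 limma called 0 of the 73, and 8 had an unadjusted p under 0.05, where 17.2% of all detected probes did. The strains did not overlap at 17 of the 73 (23.3%), against 23.1% of all detected probes. For 63 of the 73 (86.3%) the 95% interval of the difference lay within 0.5 log2 units of 0 on both sides, against 67.7% of all detected probes. That share differed with probe brightness, as given below, and the probes compared were not matched for it.

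**Figure D2:**
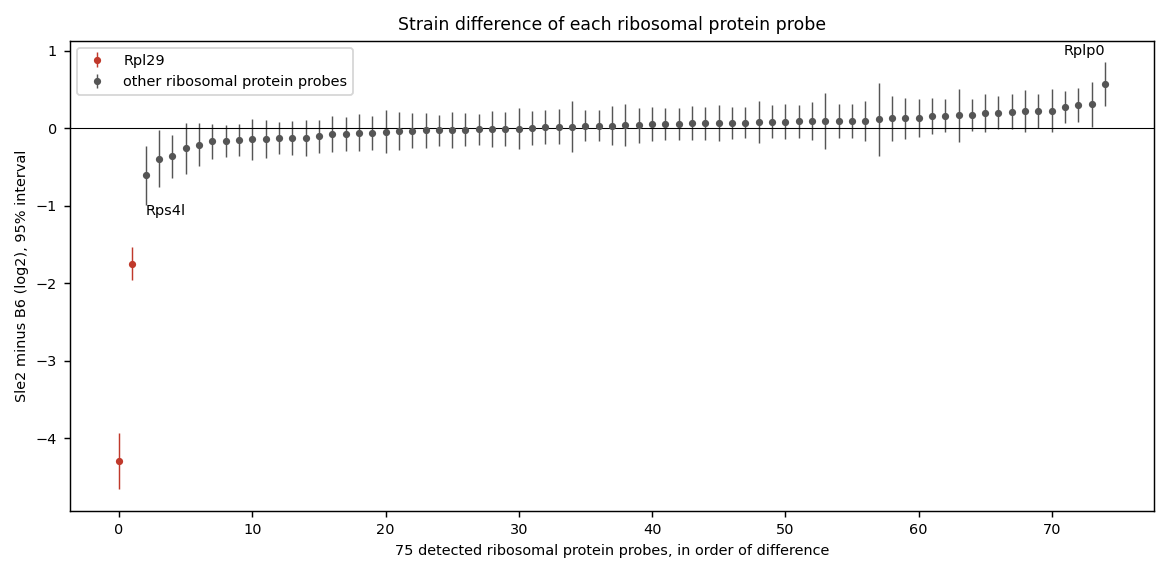
Strain difference (Sle2 minus B6, log2) of the 75 detected ribosomal protein probes in order of size, with 95% intervals from limma; red marks Rpl29. The Rpl29 probes sit at -4.29 and -1.75, and the other probes run from -0.61 (Rps4l) to 0.57 (Rplp0).

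Member probes were bright: 24 of the 100 probes with the highest mean raw intensity on the array were member probes, as were 5 of the top 20. Of the 73 probes other than Rpl29, 44 had a mean of 12 or more on the log2 scale. All 44 differed by between -0.17 and 0.20, and all 44 had a 95% interval within 0.5 log2 units of 0. That holds for the quantile-normalized values. With arrays scaled to equal medians, where the median of all detected probes was 0.11, some lay higher. These were Rps29 (0.36), Rpl24 (0.35), Rps26 (0.26) and Rps9 (0.23). Of the bright probes also refitted that way, those of Rps12, Rplp1, Rps6, Rpl26 and Rplp2 stayed between -0.17 and 0.20. The highest raw intensity of a member was 29420.5, and 32692 was the highest on any array. Of the 29 dimmer probes, 19 (65.5%) had an interval within 0.5 log2 units of 0, against 67.7% of all detected probes. Differences of the dimmer probes ran from -0.61 to 0.57. A probe's brightness also depends on its sequence, so levels are not compared between genes.

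**Figure D3:**
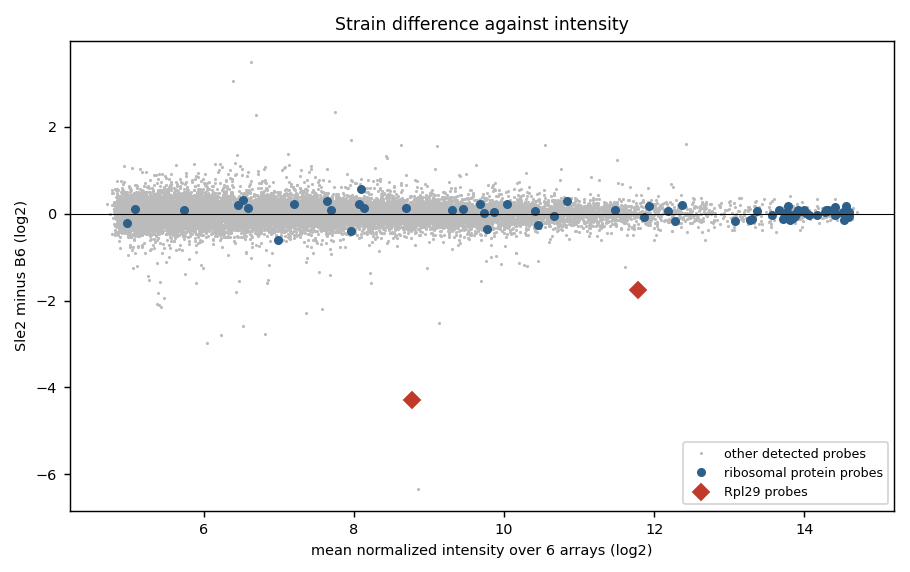
Strain difference (Sle2 minus B6, log2) against mean normalized intensity over the 6 arrays (log2) for all 17861 detected probes, with ribosomal protein probes in blue and Rpl29 in red. The blue points with a mean of 12 or more lie between -0.17 and 0.20, and the Rpl29 probes lie at -1.75 and -4.29.

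Of the large subunit without Rpl29, 43 probes of 31 genes had a median difference of 0.054, with 0 called by limma (5 at an unadjusted p under 0.05). Rplp0, the base of the stalk that recruits elongation factors, had the largest positive difference of any member. It read 8.42, 8.38 and 8.35 in the Sle2 mice, against 8.03, 7.57 and 7.84 in the B6 mice. The lowest Sle2 mouse lay above the highest B6 mouse, with a difference of 0.57 (SE 0.125, limma adjusted p = 0.0811) that did not pass the test. It did pass without background correction (0.51, adjusted p = 0.0411), with arrays scaled to equal medians (0.71, adjusted p = 0.0323), with the series matrix values (0.53, adjusted p = 0.0364), with a trended robust prior (adjusted p = 0.0153), with array weights (0.60, adjusted p = 0.0486) and without B6 mouse 1 (0.68, adjusted p = 0.0428). At an adjusted p under 0.1 it was the only further member called, where 2.69% of all detected probes were. The other Rplp0 probe was not detected on any array.

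The partners of Rplp0 in the stalk did not share its difference. Rplp1 read 14.48, 14.56 and 14.60 in the Sle2 mice, against 14.68, 14.66 and 14.52 in the B6 mice (difference -0.071, 95% interval -0.29 to 0.15). Rplp2 read 13.59, 13.83 and 13.81 in the Sle2 mice, against 13.81, 13.91 and 13.87 in the B6 mice (difference -0.12, 95% interval -0.35 to 0.11). Both overlapped between the strains.

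By the brightest probe of each gene, the other large subunit genes with the larger positive differences were Rpl7a (0.28, 95% interval 0.074 to 0.48), Rpl21 (0.23), Rpl4 (0.22), whose protein lines the exit tunnel for the new peptide, and Rpl24 (0.20). A dimmer probe of Rpl28 was at 0.31 (limma adjusted p = 0.266) and its brighter probe at 0.091. Rpl7a lay between 10.92 and 11.01 in the Sle2 mice, against 10.67 to 10.75 in the B6 mice. Its strains did not overlap, but it was not called (limma adjusted p = 0.183) unless arrays were scaled to equal medians (0.45, adjusted p = 0.0475). Rpl30 had both of its probes lower in Sle2, at -0.26 and -0.39 (limma adjusted p = 0.4 and 0.269), and overlapped between the strains at both. Rpl26 was at -0.17 (limma adjusted p = 0.417).

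Of the small subunit, 30 probes of 22 genes had a median difference of 0.026 and 0 were called by limma (3 at an unadjusted p under 0.05). Rps3a1 read 9.48, 9.60 and 9.69 in the Sle2 mice, against 9.75, 9.96 and 10.14 in the B6 mice. The Sle2 mice were all below the B6 mice, with a difference of -0.36 (SE 0.122, limma adjusted p = 0.195) that did not pass. Rps26, which contacts mRNA at its exit from the ribosome, was at 0.17 and Rps29 at 0.17. The other brightest small subunit probes, of Rps9 (0.032) and Rps12 (-0.056), had 95% intervals of -0.17 to 0.23 and -0.27 to 0.16. Rps15a, among the dimmest detected members, was at 0.080 (95% interval -0.19 to 0.35).

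Paralogues of ribosomal proteins have symbols that end in l or l1, and none was called. Rps4l, annotated here to a non-coding accession, had the largest negative difference after Rpl29. It read 6.79, 6.76 and 6.49 in the Sle2 mice, against 7.56, 7.39 and 6.92 in the B6 mice. The strains did not overlap, and the difference of -0.61 (SE 0.169, limma adjusted p = 0.139) did not pass. Rpl22l1, the paralogue of Rpl22, was detected in 1 Sle2 mouse and 2 B6 mice and was at -0.21. Rps27l, a p53 target in mouse and human cells, was at 0.094 (95% interval -0.12 to 0.31), and the brighter probe of Rpl7l1 at 0.039. Rpl3l, a striated muscle form, and Rpl39l, a form of the testis, were not detected on any array.

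Chromosome 4, which carries the Sle2 segment, held 3 member genes. Rps6, the target of the S6 kinases, read 13.86, 13.91 and 13.79 in the Sle2 mice, against 13.76, 14.05 and 13.92 in the B6 mice (difference -0.056, 95% interval -0.30 to 0.19). Rpl22, which is needed for normal lymphocyte development in mice, read 10.56, 10.74 and 10.62 in the Sle2 mice, against 10.46, 10.83 and 10.76 in the B6 mice (difference -0.044, 95% interval -0.32 to 0.23). Both overlapped between the strains, and Rps20 was not detected on any array. Chromosome 9, which carries Rpl29, held 6 more members. Of these, Rpl4 (0.22), Rplp1 (-0.071), Rps25 (-0.072) and Rps27l (0.094) were measured and none was called by limma (0 of 4 had an unadjusted p under 0.05). Rps25 read 11.96, 11.69 and 11.83 in the Sle2 mice, against 11.87, 11.95 and 11.87 in the B6 mice. The probes of Rpl14 and Rpsa did not pass the detection filter.

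In all, 8 member genes had no probe that passed the filter: Rpl6, Rpl14, Rpl17, Rpl3l, Rpl39l, Rps20, Rps23 and Rpsa. Of the 17 member probes left out, 14 were detected on no array and 3 on 1 or 2 arrays. Where other probes of the same gene were bright, as for Rpl23, Rpl37 and Rps24, a dark probe gives no measure of the transcript.

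Apart from Rpl29, probes of the same gene gave similar strain differences. Of the 54 measured genes, 16 had 2 or 3 detected probes. In the 15 other than Rpl29, the largest and smallest difference of a gene lay a median of 0.13 log2 units apart and at most 0.36 (Rpl27a, from -0.14 to 0.22), against 2.55 for Rpl29. Over all 3764 genes with at least 2 detected probes the median was 0.19, and 7.23% lay over 0.5 apart. Rps24 had 3 detected probes at -0.028, 0.23 and 0.30, and Rps12 had probes at 0.020 and -0.056. All probes had the same sign in 6 of the 15 genes.

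**Figure D4:**
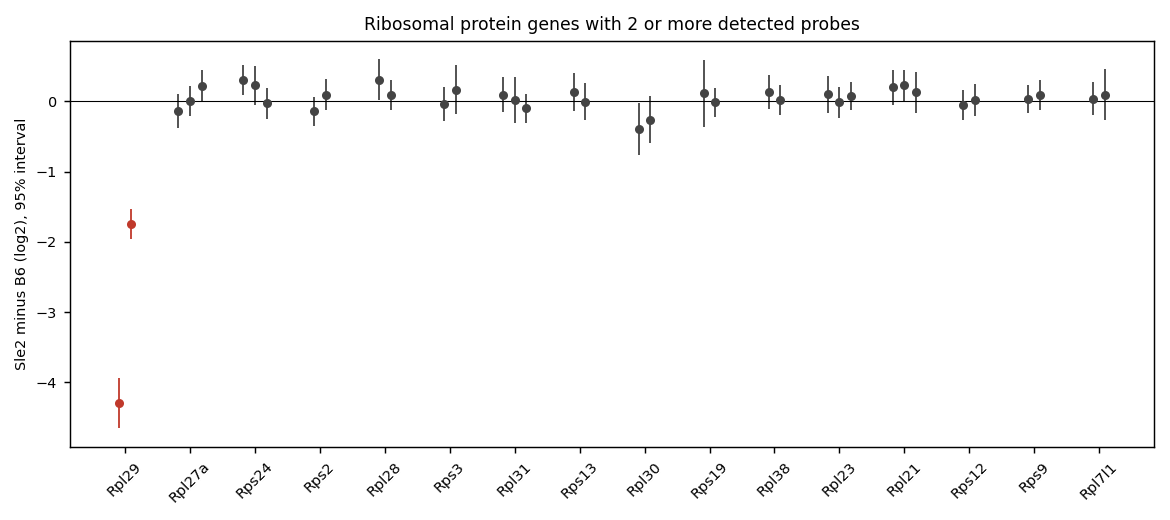
Strain difference (Sle2 minus B6, log2) with 95% interval for each detected probe of the 16 ribosomal protein genes with 2 or 3 detected probes. The Rpl29 probes (red) lie 2.55 apart, and those of the other genes at most 0.36.

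Other genes of ribosome production and translation showed few differences. Each gene is given by its brightest detected probe. Over all 9297 genes the median was 0.019, 1.04% were called and 16.9% had an unadjusted p under 0.05. Of 71 measured mitochondrial ribosomal protein genes, 1 rose and 0 fell, with a median of -0.0060. The 1 was Mrpl3 (0.54, limma adjusted p = 0.0392), on chromosome 9 as is Rpl29. Mrpl51 (0.35), Mrpl52 (0.44) and Mrps16 (-0.42) did not pass. Of 42 measured initiation and elongation factors, 0 were called by limma, with a median of 0.022; Eif3a, the scaffold of initiation factor 3, was at -0.41, Eif5a at -0.29, Hnrnpa1 at -0.36 and Eif3i at 0.23, all at an unadjusted p under 0.05. Of 49 measured ribosome assembly factors, 0 were called by limma, with a median of 0.051, and the 4 with the smallest p were Nop58 (0.36), Ltv1 (-0.34), Gnl3l (0.45) and Rrp9 (0.27), again at an unadjusted p under 0.05. Rpl36al, a ribosomal protein gene outside the symbol rule, was at -0.10 (limma adjusted p = 0.708).

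Genes that set or sense the rate of ribosome production did not pass either. Of 12 measured growth regulators, 0 were called by limma, and Max, the partner of Myc, was at -0.46 and Rheb, the activator of mTOR, at 0.31, both at an unadjusted p under 0.05. Myc was at -0.27 (limma adjusted p = 0.376) and Tsc1, an inhibitor of Rheb, at -0.26 (limma adjusted p = 0.409). Of 11 measured p53 targets, which respond to faulty ribosome assembly, 0 were called by limma; Sesn2 (-0.49) and Zmat3 (0.30) had an unadjusted p under 0.05, and Bbc3 (0.22) and Aen (-0.20) did not.

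Markers of other cell types were read on the same arrays, and limma called 0 of them. By the brightest detected probe of each gene, 16.9% of all 9297 genes had an unadjusted p under 0.05. The mean of the 10 measured T cell markers of 14 listed ran from 6.61 to 6.79 in Sle2 and from 6.27 to 6.59 in B6, and 5 were higher in Sle2 at an unadjusted p under 0.05 (Bcl11b, Zap70, Cd3g, Icos and Thy1). The mean of the 7 measured erythroid markers of 13 listed ran from 8.40 to 8.72 in Sle2 and from 7.77 to 8.63 in B6. At that unadjusted p Sptb, Slc4a1, Tspan33 and Alas2 were higher and Tfrc, the transferrin receptor, was lower (-0.49). Of the other lists, 1 of 6 measured natural killer markers (Prf1) and 1 of 8 neutrophil markers (Ltf) were higher at that unadjusted p. So were 4 of 8 plasma cell markers (Creld2, Derl3, Hsp90b1 and Edem2). Lower at that p were 2 of 8 platelet markers, Clec1b (-0.53) and Vwf (-0.54). Also lower was 1 of 11 monocyte and macrophage markers, Spic (-0.41). The mean level of the platelet list differed by -0.29, but by 0.0063 without B6 mouse 3, and that of the neutrophil list by 0.40, but by 0.84 without that mouse. The erythroid list differed by 0.43, but by 0.67 without it. The T cell (0.33 and 0.28), natural killer (0.31 and 0.43), monocyte (-0.057 and -0.057) and plasma cell lists (0.29 and 0.23) moved by less than 1.5 times when that mouse was left out. The part of these cells in the ribosomal protein values was not tested.

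Several genes beside Rpl29 on chromosome 9 were also called. In the RefSeq gene order the 15 protein-coding genes on each side of it run from Nek11 to Rad54l2. These neighbours had 28 detected probes, of which 2 were called higher and 6 lower, or 28.6% against 1.06% of all detected probes. Of the 8, 4 were detected in no mouse of 1 strain (Atp2c1, Pik3r4 and Wdr82 in Sle2, Col6a4 in B6) and so passed the detection filter only through the strain where they were high, which favours a call. Among probes detected in at least 1 mouse of each strain, 4 of 24 neighbour probes were called (16.7%), against 0.915% of all 17710 such probes. The region was chosen with the Rpl29 difference known. The gene next to it on 1 side, Dusp7, a phosphatase of MAP kinases, averaged 8.92 ± 0.11 in Sle2 and 10.47 ± 0.062 in B6 (SD, n = 3 each) and fell by 1.55 on the log2 scale (limma adjusted p = 0.000165). The gene on the other side, Acy1, an aminoacylase, had 3 detected probes between 0.11 and 0.34, none called by limma (lowest adjusted p = 0.167). Parp3 (-1.35) and Aste1 (-0.69) also fell, and Pcbp4 (0.79) rose.

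**Figure D5:**
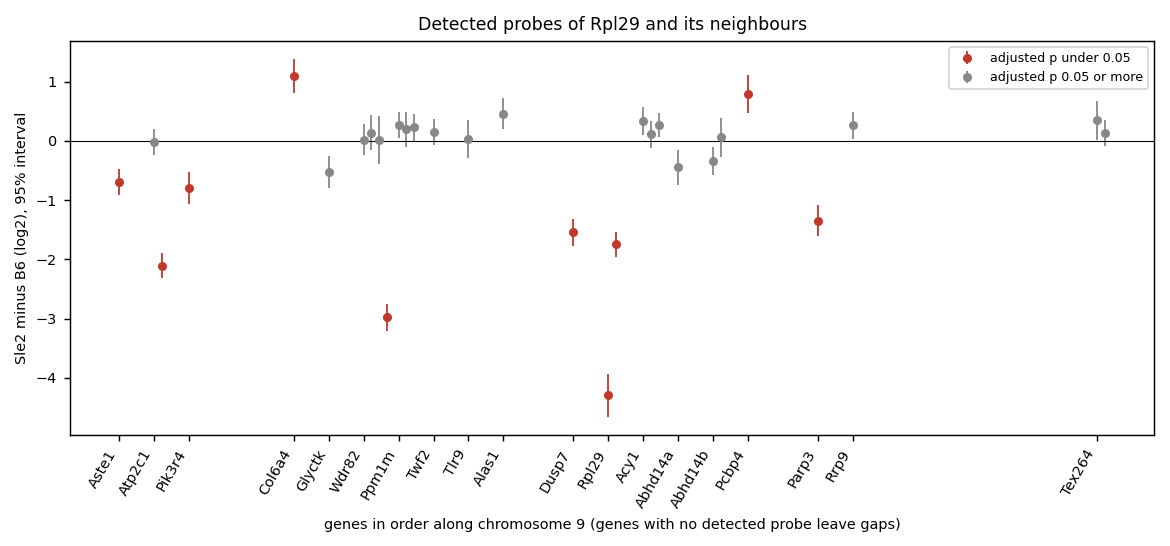
Strain difference (Sle2 minus B6, log2) with 95% interval for probes that passed the detection filter, of Rpl29 and the 15 protein-coding genes on each side, in gene order along chromosome 9. Called probes (red) include Dusp7 at -1.55 and 1 probe each of Wdr82 and Atp2c1, whose other probes lie near 0. The called probes of Atp2c1, Pik3r4, Wdr82 and Col6a4 were not detected in 1 strain, so their plotted sizes are fitted values against background.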

How the data were processed

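Total RNA of splenic B cells from 3 Sle2 and 3 B6 mice was biotin-labelled and hybridised to BeadChips, per the labels, with 1 array per mouse. Strain and mouse number came from the sample titles; nothing else in the labels describes the animals. The authors deposited linear intensity values per probe; the submitters' processing notes name GenomeStudio, with no version, and the authors also deposited a detection p-value per probe and array, per the file headers. The deposited series matrix holds intensity values that, from the values, were quantile-normalized.

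Symbols came from the platform annotation (34885 probes with 1 symbol, 18 with several, 10378 with none), updated through RefSeq (GRCm38.p6). Intensities were normexp-corrected from detection p-values (936 controls, offset 16), then quantile-normalized on the log2 scale with neqc of limma 3.58.1 in R 4.3.3. Probes detected on at least 3 arrays were fitted with lmFit and eBayes, with two-sided p-values Benjamini-Hochberg adjusted over all 17861 and called under 0.05. Differences are Sle2 minus B6; errors are SDs of 3 mice or limma SEs. The fit was tested on simulated data. Where a probe was detected in no mouse of a strain, its fold is a bound, set by the lowest detected value on each array.

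Named members were Rpl29, called probes, by the brightest detected probe of each gene the 6 largest differences each way and the 4 brightest and dimmest, members on chromosomes 4 and 9, the stalk, Rpsa and paralogues; from the ribosome, translation, growth and p53 lists and the Rpl29 neighbours, called genes and the 4 smallest p; from the cell type lists, genes at an unadjusted p under 0.05. The dimmer Rpl28 probe was added after its value was seen. The members and lists were chosen with earlier results of these data known. The alternatives changed background correction, normalization, detection filter, prior, array weights, replicate block, mice and threshold. Ribosomal protein probes can also bind near-identical pseudogene transcripts. An array has no read depth; precision rests on 3 arrays per strain.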

Additional observations from a re-analysis of the deposited data

How the results depend on the processing

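Both Rpl29 probes stayed lower in Sle2 and called under each of the 14 alternative settings run on them, from -4.49 to -3.91 and from -1.78 to -1.58, with limma adjusted p of at most 0.00101. The Sle2 minus B6 difference of the gap between them ran from -2.74 to -2.18. The count of member probes called lower was 2 in every setting. The count called higher was 0, but 1 (Rplp0) without background correction, with the series matrix values, with a trended robust prior, with array weights and at an adjusted p under 0.1, and 2 with arrays scaled to equal medians (Rplp0 and Rpl7a); leaving out 1 mouse at a time gave 0 to 1, the 1 being Rplp0 without B6 mouse 1. Scaling to equal medians also raised the median of all detected probes to 0.11 and of the members to 0.16, or 0.055 above it against 0.035 with quantile normalization, and made 82.1% of all calls higher (331 of 403) against 52.6% (100 of 190). The count of all called probes was 61, 64 and 61 without Sle2 mouse 1, 2 and 3, 271, 112 and 84 without B6 mouse 1, 2 and 3, 111 with no filter, 305 without background correction, 329 with the series matrix values and 500 with a trended robust prior. The Sle2 minus B6 difference of the first Rpl29 probe minus the member median was -4.29 in the main fit and -3.90 without background correction. For the second probe it was -1.74 in the main fit and -1.66 with equal medians. Uncalled differences that changed sign with equal medians were Rps12 (0.12), Rplp1 (0.11), Rps6 (0.034), Rps25 (0.063) and Rpl22 (0.12). Leaving out 1 mouse at a time, Rps15a ran from -0.011 to 0.16, Rpl7l1 from -0.0056 (without B6 mouse 2; -0.0033 without Sle2 mouse 2) to 0.093, Rps6 from -0.13 to 0.015 and Rpl22 from -0.15 to 0.029. The cause of these changes was not tested. Leaving out B6 mouse 3, whose array held both Xist and Y-linked signal, left the Rpl29 differences at -4.29 and -1.75 and called no other member. Leaving out Sle2 mouse 3, whose Y-linked signal was weaker, gave -4.49 and -1.75 and called no other member. The marker list means without B6 mouse 3 were added after seeing the data. With the mouse number as a replicate block, 152 probes were called, with both Rpl29 probes (limma adjusted p = 6.3e-05 and 0.000654) and no other member among them. The labels do not say that a number marks a shared litter or day. Deviations of same-numbered mice correlated at 0.20, 0.13 and 0.039, all positive. Those of unlike-numbered mice ran from -0.21 to 0.068, most of them negative. Deviations were taken from the mean of each strain, so positive like-numbered pairs force negative values among the unlike pairs. Sle2 mice 1 and 2 correlated best with the B6 mouse of their own number, and Sle2 mouse 3 with B6 mouse 2 (0.068). The main fit did not take the numbers as pairs, and a shared litter or day was not tested.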

Other observations

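Probes of Wdr82 and Atp2c1, near Rpl29, also disagreed. Both Rpl29 probes were called lower, whereas only 1 probe of each of these genes was called. Wdr82, a subunit of histone methyltransferase complexes, had 4 detected probes. Of these, 1 was not detected in any Sle2 mouse and averaged 7.53 in B6, at least 6.11-fold lower in Sle2 (limma adjusted p = 4.46e-06). The other 3 were at 0.14, 0.02 and 0.02 and were not called. Atp2c1, a calcium and manganese pump of the Golgi, had 1 probe not detected in any Sle2 mouse, at least 2.89-fold lower (limma adjusted p = 1.85e-05), beside 1 probe at -0.016 (limma adjusted p = 0.953). Pik3r4 was at least 1.29-fold lower in Sle2, where it was not detected, and Col6a4 at least 1.48-fold higher, not being detected in B6.

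Mrpl3, the mitochondrial ribosomal protein gene on chromosome 9, had probes of opposite sign. Its brighter probe read 10.14, 10.20 and 10.09 in the Sle2 mice, against 9.63, 9.53 and 9.65 in the B6 mice. Its other probe read 8.45, 8.43 and 8.54 in the Sle2 mice, against 9.23, 8.85 and 9.03 in the B6 mice, a difference of -0.56 (limma adjusted p = 0.0721). The strains did not overlap at either probe. A probe of Mrpl13, detected in no Sle2 mouse, averaged 5.18 in B6 and was at least 1.20-fold lower in Sle2 (limma adjusted p = 0.0288). It passed the detection filter only through the B6 mice, which favours a call, and a brighter probe of Mrpl13 was not called.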
